A study of Mus musculus with 19 samples.

Results

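The comparison of marrow lacking both Mediator kinases with wild-type marrow rests on 7 of the 19 libraries, 4 from double knockout mice (DKO) and 3 from wild-type mice (WT). DKO mice carried floxed Cdk8 alleles with Vav-iCre, a transgene that drives Cre recombinase in the blood lineage from the Vav promoter, together with a null Cdk19. WT mice are labelled C57/BL6 wild-type, with no altered allele or transgene named. All animals were untreated C57/BL6 mice of 8 weeks, and polyadenylated RNA came from whole marrow flushed out of the leg bones. Of 34432 genes in the table, the test covered the 13976 whose normalized counts averaged 10 or more across the 19 libraries. Because WT lacks the transgene, presence of Cre, loss of CDK8 and loss of CDK19 cannot be told apart here, and values of mice with Vav-iCre alone (VAV, n = 4) are given beside the leading results. The other 2 genotypes, CDK8KO (floxed Cdk8 with Vav-iCre, n = 4) and CDK19KO (Cdk19 null, n = 4), entered the fit and are given as levels. The genes called in CDK19KO against WT are given as well. Cells outside the blood lineage are not the intended target of Vav-iCre, so marrow stroma of DKO mice may keep Cdk8.

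CDK8 and CDK19 are closely related kinases that occupy the same place in the Mediator kinase module, with cyclin C, MED12 and MED13. The module docks reversibly on Mediator, the complex that carries signals from transcription factors to RNA polymerase II, and it can both restrain and promote transcription. Its kinases phosphorylate transcription factors, among them STAT proteins that act downstream of interferons and other cytokines.

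Libraries held 16376215 to 25580469 reads assigned to genes in WT and 14881701 to 26492553 in DKO. Whether each library stands for its own mouse is not stated, and all p-values below therefore reflect library-to-library spread, part of which may be technical. Erythroid markers (red cell precursors, 29 genes) took 0.742 to 1.21% of reads in WT and 0.227 to 0.509% in DKO. Skeletal muscle markers took 0.137% of reads in DKO replicate 4 (95% Wilson interval 0.135 to 0.139%, counting error only) and at most 0.00756% in the other 6 libraries. In whole marrow, fewer cells of a type and less RNA per cell cannot be told apart.

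Cdk19 (ENSMUSG00000038481; GRCm38/mm10 chromosome 10, 40339564 to 40483818) was read at 3214, 3216 and 3042 normalized counts in WT and at 1185, 1202, 1109.5 and 1196 in DKO. Every DKO library lay below every WT library, and the DKO mean was 37.2% of WT. The log2 fold change was -1.43 ± 0.12 (SE; limma adjusted p = 6.07e-07; exact permutation test, two-sided p = 0.0571, the smallest that 4 against 3 libraries allow). Cdk8 (ENSMUSG00000029635; chromosome 5, 146231230 to 146302874) was read at 1206, 1243 and 1275 in WT and at 881, 806, 761 and 742 in DKO, again without overlap. Its mean in DKO was 64.2% of WT, but the log2 fold change of -0.64 ± 0.18 missed the threshold (SE; limma adjusted p = 0.0754; exact permutation test, two-sided p = 0.0571). Mean Cdk8 was 80% of WT in VAV and 81.6% in CDK8KO. DKO did not differ from VAV past the threshold (log2 fold change -0.29 ± 0.17, SE; limma adjusted p = 0.408). Counts over a whole gene do not check the removal of an exon, and the Cdk8 genotype is taken from the labels. Cyclin C (Ccnc), Med12, Med12l, Med13 and Med13l, the other genes of the module, did not pass, with log2 fold changes from -0.32 for Med12l to 0.20 for Ccnc. None of the 26 tested genes of core Mediator passed either, at a median log2 fold change of -0.09.

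Commd10 (ENSMUSG00000042705; chromosome 18, 46958816 to 47234284), in which a Vav-iCre transgene in wide use lies, followed the Cre label. It stood at 502, 371 and 416 normalized counts in WT and at 1564, 1103, 1725 and 1584 in DKO, without overlap (log2 fold change 1.79 ± 0.20, SE; limma adjusted p = 3.18e-05). VAV stood at 1275 ± 157, CDK8KO at 1546 ± 479.9 and CDK19KO at 341 ± 21.4 (SD, n = 4 each). Which Vav-iCre line was used is not stated. In a list of 11 genes for the insertion and for substrain differences, Commd10 alone passed, at a list median of 0.02.

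In DKO against WT, 293 genes passed the test (limma, Benjamini-Hochberg adjusted p under 0.05), which is 2.1% of the genes tested. Of these, 197 rose (1.41%) and 96 fell (0.687%), with 192 changed more than 2-fold (124 higher, 68 lower). Libraries of the groups did not overlap for 292 of the 293, where 18.7% of all tested genes had no overlap. The calls came from these same libraries, so this lack of overlap is a description and no separate support. Of the 293, 81 genes (57 higher, 24 lower) also passed in each of the 7 fits that left out a WT or DKO library, and counts fell to 123, 161 and 142 without WT replicate 1, 2 or 3 and to 193 without DKO replicate 2. The comparison of VAV with WT, which uses the same WT libraries, gave 13 genes (0.093%), with 10 higher (0.0716%) and 3 lower (0.0215%). Other settings moved both counts: DESeq2 gave 636 genes for DKO against WT and 331 for VAV against WT, array weights 982 and 640, and a fit of only the compared groups 649 and 3. Without VAV replicate 3, VAV against WT gave 416 genes, and the lowest count without 1 library was 3. The comparison of DKO with VAV, which uses the same DKO libraries, gave 213 (1.52%), with 116 higher (0.83%) and 97 lower (0.694%). CDK19KO against WT gave 3 genes (0.0215%), all lower, namely Cdk19, Ttyh1 and Il4ra.

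**Figure D1:**
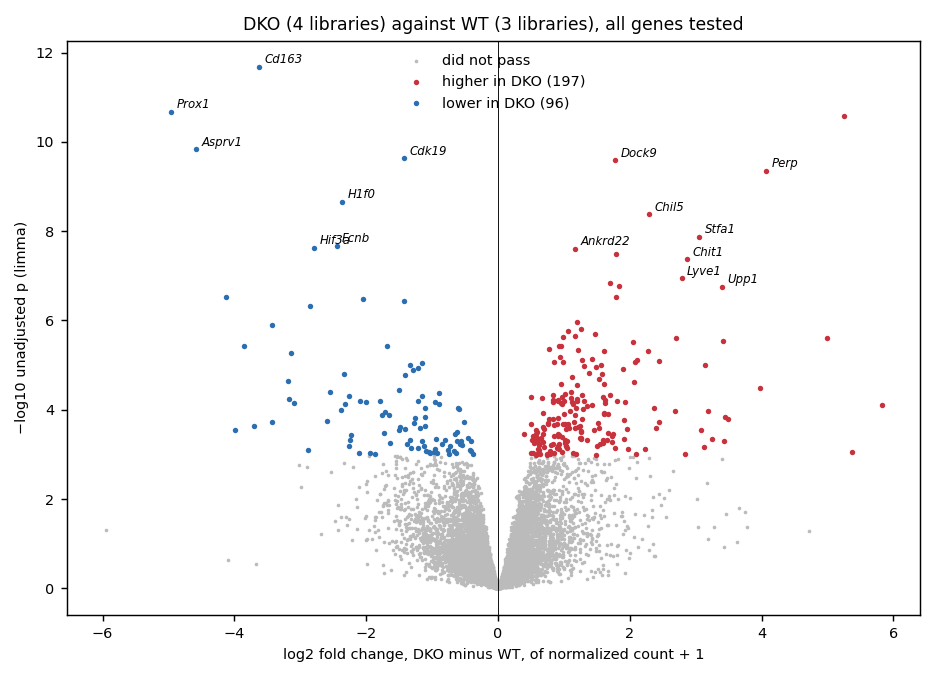
Each point is 1 of the 13976 tested genes, with the log2 fold change of DKO over WT on the x axis and the negative log10 of the unadjusted limma p on the y axis. Red points are the 197 genes that rose and blue points the 96 that fell; Cd163, Prox1 and Asprv1 stand highest among the genes that fell.

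Genes of macrophages that clear aged red cells were lower in DKO marrow. Of 18 tested members of this list, 7 fell and 0 rose, where 0.687% of all tested genes fell. The median log2 fold change was -0.59 against -0.01 for all genes tested. Cd163 (ENSMUSG00000008845), the scavenger receptor for hemoglobin bound to haptoglobin, was read at 923, 743 and 840.1 normalized counts in WT and at 62.2, 51.9, 75.8 and 77.9 in DKO. The groups lay far apart, with DKO 12.4-fold lower (log2 fold change -3.63 ± 0.22, SE; limma adjusted p = 2.92e-08), and VAV at 550.4 ± 117 (SD, n = 4) lay between them. Cd5l, a secreted protein of tissue macrophages, stood at 213, 215 and 178 in WT and at 48.1, 51.9, 32.6 and 64.4 in DKO, 4.14-fold lower without overlap (limma adjusted p = 0.000211), with 131 ± 25.5 in VAV (SD, n = 4). Mrc1, the macrophage mannose receptor, stood at 2775, 2223 and 3034 in WT and at 1028, 1337, 1195 and 1247 in DKO (limma adjusted p = 0.00238). VAV held 1593 ± 421 of Mrc1 (SD, n = 4), from which DKO did not differ past the threshold (limma adjusted p = 0.309).

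Timd4, which binds phosphatidylserine on dying cells, and Axl, a receptor kinase of the same uptake pathway, fell by 1.22 and 0.90 on the log2 scale. Timd4 held 167 ± 15.6 in WT (SD, n = 3), 117 ± 36.6 in VAV and 71.5 ± 11.9 in DKO (SD, n = 4). Hmox1, the heme oxygenase that opens the heme ring, fell by 1.12 on the log2 scale, from 4991 ± 1010.5 in WT (SD, n = 3) to 2312 ± 505 in DKO (SD, n = 4; limma adjusted p = 0.0106). Fcna, a lectin of the ficolin family, also fell by 1.12 on the log2 scale. Single libraries decided some of these calls: that of Axl was lost without WT replicate 3, that of Hmox1 without WT replicate 1 or WT replicate 3, and that of Fcna without WT replicate 1, WT replicate 2, DKO replicate 1 or DKO replicate 4. With the erythroid level as a term in the fit, 7 members of the list passed, Cd163, Cd5l, Mrc1 and Timd4 among them. Other defining genes of these cells did not pass: Spic, the transcription factor of red pulp macrophages, was at 0.39 ± 0.20 on the log2 scale (SE), the iron exporter Slc40a1 at 0.28 ± 0.21, and the complement gene C1qa at -0.38 ± 0.19. Over the list, the mean log2 level relative to the WT mean ran from -0.07 to 0.12 in WT libraries, from -0.49 to 0.00 in VAV and from -0.96 to -0.55 in DKO. VAV against WT had a median of -0.35 with 0 called, and DKO against VAV one of -0.32 with 3 that fell.

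**Figure D2:**
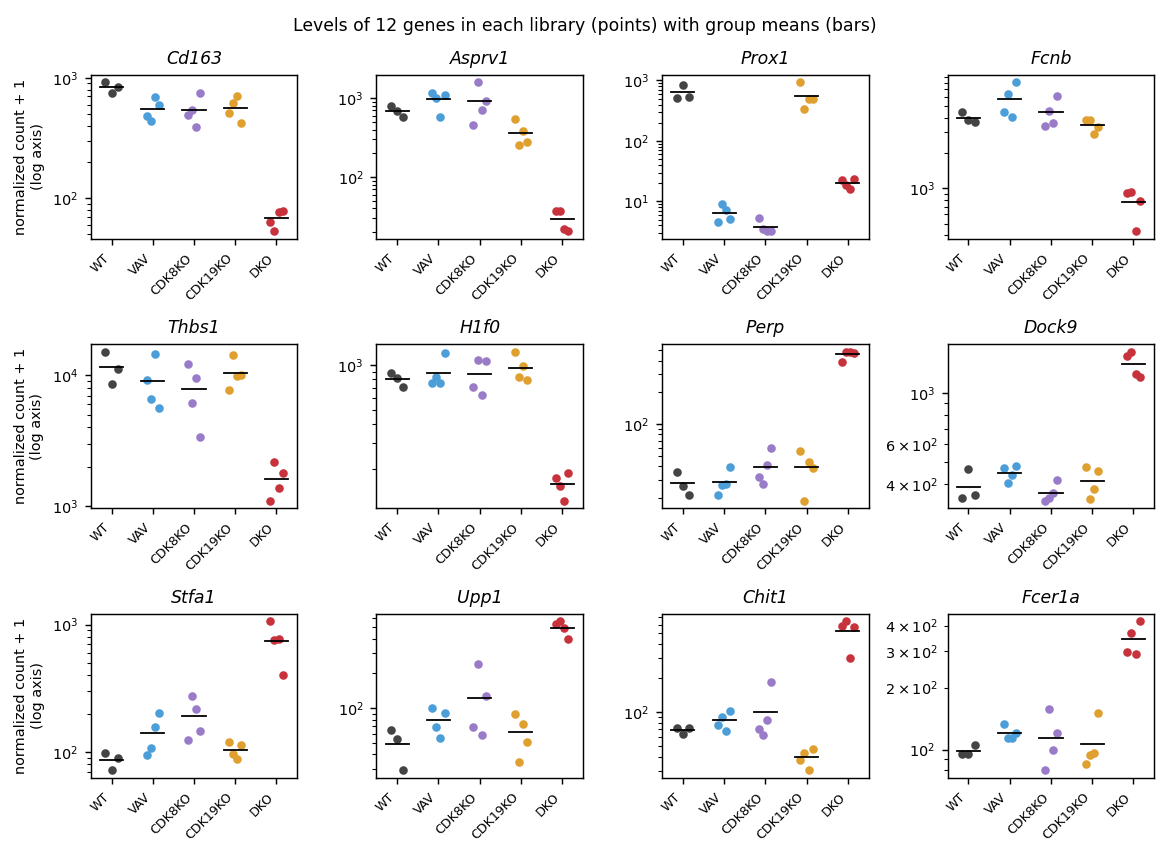
Normalized counts plus 1 of 12 genes on log axes in every library of the 5 genotypes; points are libraries and bars the mean of the group. DKO libraries stand apart from WT libraries for all 12 genes, whereas Prox1 is also low in VAV and CDK8KO, the other genotypes with Vav-iCre. The 12 genes were picked from those that passed in these same libraries, so their separation is no separate support.

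Granulocyte genes moved in both directions. Of 23 late neutrophil genes, 3 fell (Asprv1, Cxcr1 and Camp) and 2 rose (Itgam and Stfa2l1), at a median log2 fold change of 0.05. These 5 calls are 21.7% of the list, where 2.1% of all tested genes passed. The count dropped from 5 to 3 without WT replicate 1, WT replicate 2 or DKO replicate 2, and to 2 without WT replicate 3. Against VAV, 6 of the 23 fell and 0 rose, at a median of -0.46, while VAV against WT had a median of 0.47 with 0 called. Asprv1 (ENSMUSG00000033508), an aspartic protease also known from skin, stood at 783, 693 and 570.3 normalized counts in WT and at 36.5, 36.4, 21.1 and 19.5 in DKO. That is 24-fold lower without overlap (log2 fold change -4.59 ± 0.36, SE; limma adjusted p = 5.18e-07). VAV held 965 ± 265 and CDK19KO 362 ± 128 (SD, n = 4 each). Cxcr1, a chemokine receptor of neutrophils, stood at 69.6, 43.9 and 42.2 in WT and at 3.32, 1.73, 4.21 and 7.49 in DKO, 10.8-fold lower (limma adjusted p = 0.000684), with 57.7 ± 22.7 in VAV and 13.9 ± 3.28 in CDK19KO (SD, n = 4). The DKO values of Cxcr1 lay near the level of 3 reads, 2.49 to 4.50 normalized counts, so the size of its fall is uncertain.

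Camp, the antimicrobial peptide cathelicidin of secondary granules, stood at 22327, 19312 and 28903 in WT and at 11235, 12217, 13252 and 13026 in DKO. Its log2 fold change was -0.90 ± 0.18 (SE; limma adjusted p = 0.00919), a call lost without WT replicate 3. Fcnb, a ficolin of neutrophil precursors, was the single early granulocyte gene of 14 that passed (7.14%, where 2.1% of all tested genes passed). It stood at 4522, 3815 and 3659.8 in WT and at 906, 925, 428 and 781 in DKO, 5.46-fold lower (limma adjusted p = 2.69e-05). VAV held 22446 ± 6061 of Camp and 5765 ± 1857 of Fcnb (SD, n = 4 each). Itgam, the CD11b integrin chain, rose by 0.85 ± 0.19 on the log2 scale, with means of 11486 ± 1304 for WT (SD, n = 3) and 20844 ± 3025 for DKO (SD, n = 4; limma adjusted p = 0.0195). VAV held 18975 ± 4260.1 of it, and the call was lost without WT replicate 1, WT replicate 2, WT replicate 3 or DKO replicate 2. Itgam overlaps the predicted gene Gm49368, so reads of the pair may have been split.

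Several stefins and chitinase-like proteins of myeloid cells rose. In a list of these genes with myeloid lectins, 6 of 20 tested rose (Stfa1, Stfa2, Stfa2l1, Stfa3, Chil1 and Chit1) and 2 fell (the lectins Fcnb and Fcna). Of all tested genes, 1.41% rose and 0.687% fell. This list, like the others, was chosen with earlier results of these data known, so its share of calls is a description. In it, 11 genes had a positive log2 fold change and 9 a negative one. The median log2 fold change of the list was 0.31, and 5 members passed without DKO replicate 1 or WT replicate 2. The call of Stfa2 was also lost without WT replicate 3 or DKO replicate 2, and that of Stfa2l1 without each WT library, DKO replicate 1 or DKO replicate 2. Stfa1, an inhibitor of cysteine proteases, stood at 96.2, 70.5 and 88.2 normalized counts in WT and at 1065, 763, 766 and 402 in DKO, 8.31-fold higher (limma adjusted p = 1.89e-05). Stfa3 stood at 43.8, 42.5 and 69.1 in WT and at 483, 345, 298 and 246 in DKO, with 61.3 to 80.2 in VAV. Stefin genes are near-identical copies, so the split of reads among them is uncertain. Chit1, a secreted chitinase of macrophages, stood at 71.3, 62.5 and 70.3 in WT and at 583, 644, 299 and 574 in DKO, 7.32-fold higher (limma adjusted p = 3.97e-05). Chil5, a chitinase-like protein outside that list, stood at 125, 105 and 66.5 in WT and at 408, 468, 458 and 564 in DKO, 4.88-fold higher (limma adjusted p = 6.48e-06). In VAV, Stfa1 held 139 ± 48.8, Chit1 83.1 ± 15.2 and Chil5 165 ± 17.9 (SD, n = 4 each), none of which passed against WT.

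Other genes with large falls came from several functions. Thbs1, thrombospondin 1 of platelet granules and monocytes, stood at 15166, 8609 and 11138 in WT and at 1101, 2192, 1391 and 1799 in DKO, 7.22-fold lower (limma adjusted p = 0.000274). H1f0, a replacement linker histone of differentiated cells, stood at 886, 818 and 711 in WT and at 171, 151, 120.0 and 186 in DKO, 5.14-fold lower (limma adjusted p = 3.81e-06). VAV held 9032 ± 4019.5 of Thbs1, with libraries from 5655 to 14610.0, and 884 ± 213 of H1f0 (SD, n = 4 each), and neither gene passed against WT. Of 9 linker and replacement histone genes tested (median -0.23), H3f3b, which encodes histone H3.3, fell as well, by 0.41 on the log2 scale (limma adjusted p = 0.0439, lost in each of the 7 fits without a WT or DKO library).

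Hif3a, a subunit of hypoxia-inducible factor, stood at 176, 169 and 439 in WT and at 35.7, 36.4, 27.4 and 34.5 in DKO, 6.90-fold lower. VAV held 121 ± 44.9 and CDK8KO 85.9 ± 6.28 of it (SD, n = 4 each). Klra4, an activating receptor of natural killer cells, stood at 49.8, 37.2 and 65.2 in WT and at 9.89 ± 4.86 in DKO (SD, n = 4). It was the single natural killer gene of 20 that passed (5%, where 2.1% of all tested genes passed), and it belongs to a family of near-identical receptors. Dmwd, the secreted glycoprotein Crispld2 and the adhesion molecule Amigo2 fell 3.2-fold, 2.68-fold and 2.83-fold. Amigo2 overlaps Pced1b on the other strand and Crispld2 overlaps Galnt2l on the same strand, so their reads may be shared.

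Prox1 and Ttyh1 were low in mice with Cre alone as well. Prox1, the homeobox regulator of lymphatic vessels, stood at 518, 848 and 533 normalized counts in WT and at 21.6, 17.3, 14.7 and 22.5 in DKO (log2 fold change -4.96 ± 0.35, SE; limma adjusted p = 1.21e-07). It stood at 5.47 ± 2.01 in VAV, 2.82 ± 1.02 in CDK8KO and 562 ± 263 in CDK19KO (SD, n = 4 each). VAV against WT was -6.63 ± 0.35 on the log2 scale (limma adjusted p = 1.97e-09), and DKO stood 1.66 ± 0.32 above VAV (limma adjusted p = 0.0117). Ttyh1, a membrane protein of the tweety channel family, stood at 85.0, 54.5 and 38.4 in WT and at 3.60 ± 2.75 in DKO (SD, n = 4). It was low in VAV, CDK8KO and CDK19KO as well, at 6.94 ± 1.78, 3.14 ± 0.625 and 4.63 ± 3.95 (SD, n = 4 each), so WT had the highest mean of the 5 genotypes, though VAV against WT did not pass (limma adjusted p = 0.0767).

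Perp (ENSMUSG00000019851), a membrane protein of desmosomes and a known p53 target, had the largest rise among genes named by size. It stood at 34.4, 25.3 and 20.5 normalized counts in WT and at 384, 484, 485 and 468 in DKO. DKO libraries were 16.8-fold higher (log2 fold change 4.07 ± 0.34, SE; limma adjusted p = 8.93e-07), and VAV at 27.7 ± 7.70 (SD, n = 4) lay with WT. Of the 26 tested p53 targets, Pmaip1, the cell death gene also called Noxa, rose (1.09 on the log2 scale) and the sestrin Sesn1 fell by 0.86, at a median of 0.18 for the list. The 3 calls are 11.5% of the list, where 2.1% of all tested genes passed, and 1 was left without WT replicate 1 or WT replicate 3. Upp1, a uridine phosphorylase, stood at 64.4, 53.2 and 28.1 in WT and at 530.4, 564, 493 and 397 in DKO, 10.5-fold higher (limma adjusted p = 0.00013), with 77.7 ± 20.5 in VAV (SD, n = 4). Dock9, an activator of the small GTPase CDC42, stood at 349.6, 464 and 358 in WT and at 1448, 1513, 1211 and 1178 in DKO, 3.43-fold higher (limma adjusted p = 6.07e-07), with 448 ± 34.1 in VAV (SD, n = 4).

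Receptors and surface proteins were among the other genes that rose, with wide spread between DKO libraries for several, Enpep and Lyve1 among them. Enpep, the aminopeptidase that trims angiotensin II, stood at 79.0, 59.8 and 75.4 in WT and at 222, 231, 614 and 736 in DKO (5.44-fold, limma adjusted p = 0.00231), with 81.6 ± 8.08 in VAV (SD, n = 4). Lyve1, a hyaluronan receptor of lymphatic vessels and some macrophages, stood at 31.8, 33.2 and 38.4 in WT and at 168, 223, 193 and 481 in DKO (6.90-fold, limma adjusted p = 9.98e-05). Both were highest in DKO replicate 4, the library with muscle transcripts, and both kept their call without it. VAV lay between the groups for Lyve1 at 86.3 ± 38.1, and for the apelin receptor Aplnr, which held 51.1 ± 23.3 in WT (SD, n = 3), 99.6 ± 24.3 in VAV and 196 ± 22.5 in DKO (SD, n = 4). Rnf152, a ubiquitin ligase of lysosomes, stood at 6.01, 10.6 and 0 in WT and at 67.2, 80.5, 32.6 and 117 in DKO. The mucin Muc20, the GTPase-activating protein Srgap1, the chaperone relative Hspa12a and the galactolipid enzyme Ugt8a rose by 3.13, 2.28, 2.08 and 2.07 on the log2 scale. Muc20 ran from 5.12 to 7.73 normalized counts in WT and from 37.3 to 148 in DKO. WT counts of Muc20 and Rnf152 were low, where 3 reads are 2.58 to 3.99 normalized counts, so the size of both rises is uncertain. Srgap1 ran from 64.4 to 214 in DKO and overlapped CDK8KO, at 44.9 to 92.4. VAV held 11.4 ± 5.92 of Muc20, 13.8 ± 4.87 of Rnf152 and 44.8 ± 8.67 of Srgap1 (SD, n = 4 each). Jag1, a ligand of Notch receptors, rose 2.31-fold, from 101 ± 11.1 (SD, n = 3) to 236 ± 27.4 (SD, n = 4; VAV 142 ± 4.22). It was the single gene of 14 tested in the Notch list that passed (7.14%, where 2.1% of all tested genes passed).

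**Figure D3:**
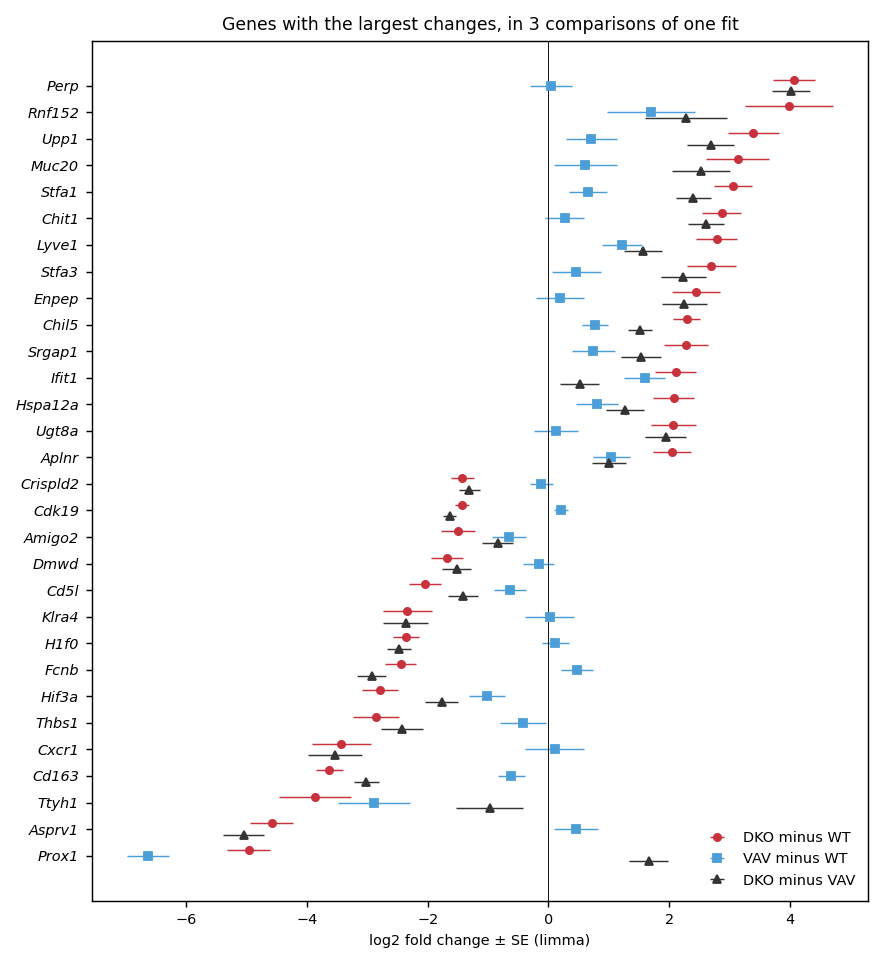
Log2 fold changes with their SE from 1 limma fit for the 15 genes of each direction named by size: DKO over WT (circles), VAV over WT (squares) and DKO over VAV (triangles). Genes that passed in all 7 fits without a WT or DKO library came first, so some larger changes are absent, such as Ear6 at 3.19. The 3 comparisons share libraries, so they are not independent; Ifit1 and Prox1 show VAV over WT values of 1.59 and -6.63, whereas Perp, Chit1 and Asprv1 show 0.05, 0.27 and 0.46.

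Interferon-stimulated genes were higher in DKO marrow. Of 36 tested, 14 rose and 0 fell, where 1.41% of all tested genes rose. In DKO, 34 had a higher mean than in WT, and the median log2 fold change was 0.93. Libraries did not overlap for 25 of the 36, where 9.34% of all tested genes had every DKO library above every WT library. The mean log2 level of the list relative to the WT mean was -0.24, 0.19 and 0.06 in WT, 0.80, 1.02, 0.80 and 0.81 in DKO, and 0.83, 0.55, 0.25 and 0.38 in VAV. All DKO libraries lay above all WT libraries, and VAV replicate 1 lay among the DKO libraries. The count changed with single libraries and with the erythroid term: 2 passed without WT replicate 1, 7 without WT replicate 3, 8 without DKO replicate 2, and 8 when the fit included erythroid level as a term.

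Ifit1 (ENSMUSG00000034459), which binds viral RNA, stood at 79.9, 154 and 136 normalized counts in WT and at 642, 628, 417 and 418 in DKO. DKO was 4.31-fold higher without overlap (log2 fold change 2.11 ± 0.34, SE; limma adjusted p = 0.00224). VAV libraries held 553, 404, 268 and 279, above all WT libraries, at 1.59 ± 0.34 over WT (limma adjusted p = 0.0829). Cmpk2, a mitochondrial nucleotide kinase, stood at 1079.8, 1374 and 1203 in WT and at 2312, 2721, 2106 and 2347 in DKO (limma adjusted p = 0.00137), and it was the single member to pass in VAV against WT, at 0.85 ± 0.15 (limma adjusted p = 0.0321). Irf7, the transcription factor that amplifies type I interferon, went from 384 ± 68.2 (SD, n = 3) to 758 ± 59.2 (SD, n = 4), and Oasl2, an antiviral protein of the oligoadenylate synthetase family, from 1155 ± 186 to 3515 ± 459. Both calls, with those of Rtp4 and Ifi44, were lost without WT replicate 1. DKO against VAV had 0 called members and a median of 0.39, and VAV against WT had 1 called and a median of 0.46. WT had the lowest mean of the 5 genotypes for 28 of the 36 genes and DKO the highest for 31 (20.2% and 23.4% of all tested genes).

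Gbp2, a guanylate-binding protein that attacks intracellular pathogens, stood at 314, 309.8 and 384 in WT and at 681, 989, 602 and 788 in DKO, without overlap (limma adjusted p = 0.0134). Gbp2 was 2.25-fold higher in DKO, a call lost without WT replicate 1 or WT replicate 2, and VAV held 479 ± 114 (SD, n = 4). Gbp6, of the same protein family, stood at 85.9, 124 and 85.7 in WT and at 161, 374, 273 and 255 in DKO, 2.61-fold higher without overlap (limma adjusted p = 0.00334), with 146 ± 16.9 in VAV (SD, n = 4). The Gbp genes are close copies of each other, so the split of reads among them is uncertain. None of 27 STAT factors and cytokine receptors passed, at a median of 0.21.

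**Figure D4:**
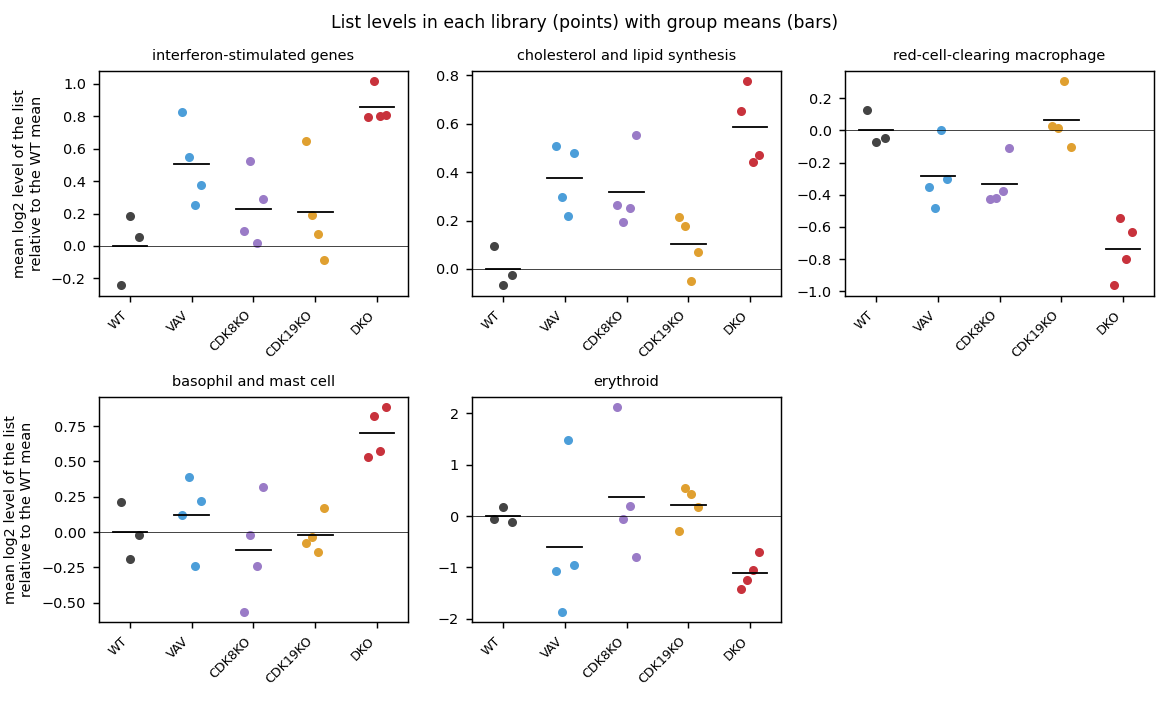
Mean log2 level of 5 gene lists in each library, relative to the WT mean of each gene; points are libraries and bars the mean of the group. DKO libraries lie above all WT libraries for the interferon-stimulated, cholesterol and basophil lists and below all WT libraries for the macrophage and erythroid lists. In mean, VAV lies between them for the interferon-stimulated, cholesterol, macrophage and basophil lists. VAV libraries of the erythroid list run from -1.86 to 1.48 and so span both groups.

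The promoters of the interferon-stimulated genes that rose are shown where they hold the core letters of the interferon-stimulated response element, bound by STAT and IRF factors. The letters searched, on both strands, were GAAA, any 2 bases and GAAA again, in the 250 bases before each RefSeq start (GRCm38.p6). They were found in 4 of the 11 genes that rose and have a window (36.4%), in 12 of 26 tested list members with a window (46.2%) and in 3.47% of 10505 tested genes. Each sequence runs 5′ to 3′ on the gene's strand, with the match in capitals, and bases inside the annotated gene are left out. Ifit3 and Ifit3b carry both matches in nearly the same surroundings, and reads of this pair are hard to tell apart.
Ifit1 (chr19:34640639-34640870, plus strand): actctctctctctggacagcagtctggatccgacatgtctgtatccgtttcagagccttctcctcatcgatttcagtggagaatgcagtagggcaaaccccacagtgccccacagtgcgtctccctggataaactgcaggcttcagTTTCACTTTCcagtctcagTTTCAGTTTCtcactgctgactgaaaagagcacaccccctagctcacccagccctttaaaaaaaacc
Ifit3 (chr19:34583279-34583528, plus strand): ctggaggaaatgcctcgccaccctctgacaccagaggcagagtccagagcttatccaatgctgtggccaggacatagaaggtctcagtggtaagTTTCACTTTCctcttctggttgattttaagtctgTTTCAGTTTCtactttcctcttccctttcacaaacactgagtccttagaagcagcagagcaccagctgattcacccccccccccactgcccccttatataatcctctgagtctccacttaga
Ifit3b (chr19:34607707-34607956, plus strand): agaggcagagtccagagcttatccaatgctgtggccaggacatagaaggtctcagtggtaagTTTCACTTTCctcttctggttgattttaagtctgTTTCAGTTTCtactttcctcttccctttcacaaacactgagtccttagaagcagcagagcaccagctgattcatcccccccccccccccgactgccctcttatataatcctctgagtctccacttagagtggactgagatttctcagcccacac
Oas3 (chr5:120777662-120777909, minus strand): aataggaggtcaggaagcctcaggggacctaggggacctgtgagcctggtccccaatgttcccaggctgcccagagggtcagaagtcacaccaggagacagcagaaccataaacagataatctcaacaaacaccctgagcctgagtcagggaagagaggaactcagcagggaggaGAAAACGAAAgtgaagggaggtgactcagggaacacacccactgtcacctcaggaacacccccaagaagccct
A match is a description of letters, not of a bound site. The nearer match of Ifit1 lies 85 to 76 bases before its RefSeq start, and the match of Oas3 75 to 66 bases before its own. The sequences shown leave out the last 18 bases before that start for Ifit1 and the last 2 for Oas3. Ifit3 rose from 109 to 308 normalized counts (limma adjusted p = 0.018), Ifit3b from 65.0 to 203 (limma adjusted p = 0.0259) and Oas3, an oligoadenylate synthetase, from 1604 to 3326 (limma adjusted p = 0.0186), as means of WT and DKO. These 3 calls were lost without WT replicate 1, WT replicate 3 or DKO replicate 2, and that of Ifit3b also without DKO replicate 1.

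Part of the genes of cholesterol synthesis rose. Of 29 tested genes of cholesterol and lipid synthesis, 11 rose and 0 fell, where 1.41% of all tested genes rose. In this list 27 had a higher DKO mean, and the median log2 fold change was 0.63. Hmgcs1, which makes the precursor of mevalonate, stood at 855, 674 and 699 normalized counts in WT and at 1624, 1678, 1407 and 1277 in DKO, 2.01-fold higher (limma adjusted p = 0.00789). Msmo1, a sterol demethylation enzyme, stood at 689, 513 and 651 in WT and at 1345, 1788, 1293 and 1254 in DKO, 2.29-fold higher (limma adjusted p = 0.000601). The groups did not overlap for either gene. VAV stood between them, at 1047 ± 166 for Hmgcs1 and 1018 ± 135 for Msmo1 (SD, n = 4 each).

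Mevalonate kinase (Mvk), Idi1, Fdps, squalene epoxidase (Sqle), Cyp51 and Hsd17b7, which follow along the pathway, rose 1.86-fold to 2.81-fold. Mvk held 36.4 ± 9.78 in WT (SD, n = 3), 90.2 ± 13.1 in VAV and 103 ± 18.6 in DKO (SD, n = 4), and DKO did not differ from VAV past the threshold (limma adjusted p = 0.742). Insig1, which holds back the sterol sensor, rose 1.98-fold, and the sterol carrier Stard4 rose by 0.65 on the log2 scale. Cyp51 overlaps Akap9 on the other strand, and its reads may include those of Akap9. VAV against WT had 0 called members with a median of 0.37, and DKO against VAV had 2 that rose (Cyp51 and Insig1) with a median of 0.25. The count of 11 fell to 6 without WT replicate 2 and to 7 without DKO replicate 2. The calls of Fdps (without each WT library, DKO replicate 1 or DKO replicate 2), Sqle (WT replicate 2, WT replicate 3 or DKO replicate 2), Stard4 (WT replicate 1, WT replicate 2, DKO replicate 1 or DKO replicate 2) and Idi1 (WT replicate 2) were among those lost.
The letters TCACNCCAC of a sterol regulatory element were searched on both strands in the same windows. They were found in 1 of 7 genes that rose and have a window (14.3%). They were also found in 1 of 20 tested list members with a window (5%), the same gene, and in 1.14% of tested genes. The shares of the list thus rest on 1 gene. The match lies 137 to 129 bases before the start of Hmgcs1, whose promoter is shown for it.
Hmgcs1 (chr13:119690101-119690350, plus strand): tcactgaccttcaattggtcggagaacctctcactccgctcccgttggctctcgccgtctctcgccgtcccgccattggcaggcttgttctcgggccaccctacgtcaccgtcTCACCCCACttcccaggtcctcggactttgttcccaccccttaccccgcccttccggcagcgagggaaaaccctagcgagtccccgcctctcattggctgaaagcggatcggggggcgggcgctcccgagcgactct

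Most basophil and mast cell genes were higher in DKO marrow. Of 12 tested, 4 rose and 0 fell, where 1.41% of all tested genes rose. The median log2 fold change was 0.74, with 10 members higher and 2 lower in DKO. Every DKO library lay above every WT library for 8 members and below for 2 (9.34% and 9.38% of all tested genes). Fcer1a, the alpha chain of the high-affinity IgE receptor, stood at 94.5, 94.4 and 105 normalized counts in WT and at 298, 366, 292 and 419.7 in DKO. It was 3.45-fold higher without overlap (limma adjusted p = 0.000198), and VAV at 119 ± 9.51 (SD, n = 4) lay close to WT. The basophil proteases Mcpt8 and Prss34 rose 2.46-fold and 2.26-fold, and carboxypeptidase Cpa3, a granule enzyme of mast cells and basophils, 2.40-fold. These 3 calls rested on few libraries: a single member passed without WT replicate 2, and 2 passed without WT replicate 3, DKO replicate 2 or DKO replicate 4. VAV against WT had a median of 0.09 with 0 called, and DKO against VAV a median of 0.74 with 3 that rose.

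Of 15 eosinophil genes, 2 rose, Ear6 and Siglecf, and the median was 0.50. That is 13.3% of the list, where 2.1% of all tested genes passed and 1.41% rose. Ear6, a secreted ribonuclease, stood at 68.7, 57.2 and 62.7 in WT and at 342, 274, 1952 and 616 in DKO, 9.12-fold higher in the fit (limma adjusted p = 0.0119), with DKO replicate 3 the highest. Siglecf, a sialic acid receptor of eosinophils, stood at 305, 245 and 322 in WT and at 559, 654, 1036 and 588 in DKO (limma adjusted p = 0.0292). Neither kept its call without WT replicate 1, WT replicate 2 or WT replicate 3. VAV against WT had a median of -0.39, and DKO against VAV had 5 that rose (Prg2, Prg3, Epx, Ear6 and Siglecf) at a median of 1.09.

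Red cell and platelet genes were lower in mean, and 1 of each list passed, where 2.1% of all tested genes passed. Of 29 erythroid genes, 28 had a lower DKO mean at a median log2 fold change of -1.07, 24 had every DKO library below every WT library (9.38% of all tested genes did), and 1 passed. This was Car1, the carbonic anhydrase of young red cells, which stood at 7611, 4747 and 4852 normalized counts in WT and at 2463, 1839, 1286 and 1739 in DKO (limma adjusted p = 0.0134, lost without WT replicate 1). The mean log2 level of the list relative to WT ran from -1.86 to 1.48 across VAV libraries, which enter the shared estimate of the spread, and 19 erythroid genes passed when only WT and DKO were fitted. Heme synthesis genes had a median of -0.68 with 0 of 14 called. Of 24 megakaryocyte and platelet genes, Thbs1 fell, the median was -1.08, and 15 passed when only WT and DKO were fitted.

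No gene of the MHC class II, T cell or B cell lists passed. Calls in the plasma cell, dendritic cell and monocyte lists were 11.8%, 14.3% and 5.88% of their genes, where 2.1% of all tested genes passed. All 11 genes of MHC class II had a lower DKO mean, at a median of -0.62 with 0 called, and VAV against WT gave a median of -0.58. T cell genes had a median of 0.47 with 0 of 24 called, mature B cell genes one of -0.32 with 0 of 24, and B cell precursor genes one of 0.13 with 0 of 18. In the plasma cell list of 17, Prdm1 and Xbp1, transcription factors of antibody-secreting cells, rose by 0.97 and 0.51 on the log2 scale, and neither call held without WT replicate 1, WT replicate 2, WT replicate 3 or DKO replicate 4. Of 14 dendritic cell genes, the chemokine receptor Ccr9 rose 3.05-fold and the lectin Cd209d fell by 3.18 on the log2 scale. DKO libraries held 0 to 5.26 normalized counts of Cd209d, near the level of 3 reads, so the size of its fall is uncertain. Both calls were lost without WT replicate 1, that of Ccr9 also without WT replicate 2, and Ccr9 overlaps Lztfl1 and Slc6a20a. The monocyte list of 17 had 1 call, the Fc receptor Fcgr1, which rose 2.41-fold and whose call was lost without WT replicate 1 or WT replicate 2.

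Cell cycle, stress and signalling lists had 2 calls or fewer each, where 2.1% of all tested genes passed. None of 33 S phase genes (median -0.27), 32 mitosis genes (-0.06), 26 glycolysis and HIF targets (0.13), 15 heat shock genes (-0.25) or 19 stem and progenitor genes (0.12) passed, and skeletal muscle genes had 0 of 17 called. Of the S phase genes, 30 had a lower DKO mean, and 11 had every DKO library below every WT library (9.38% of all tested genes did). DKO had the lowest mean of the 5 genotypes for 29 of them, as it did for 26% of all tested genes. The mean log2 level of the S phase list relative to WT ran from -0.38 to -0.09 in DKO, -0.07 to 0.12 in WT and -0.25 to 0.38 in VAV. That of the heat shock list ran from -0.48 to -0.22 in DKO and from -0.18 to 0.14 in WT, so DKO lay below WT in both lists. Of the immediate early genes, 8 of 26 had every DKO library below every WT library, and 0 the reverse (9.38% and 9.34% of all tested genes). In the adhesion and marrow retention list of 19 (median 0.23), Itgam alone passed. Medians of the lists with single calls were 0.17 for natural killer, 0.21 for monocyte, 0.07 for early granulocyte, 0.05 for Wnt, 0.21 for Notch, 0.14 for stress response, -0.16 for immediate early and -0.48 for stroma, bone and vessel genes. In the last list, 22 of 31 had a lower DKO mean. Every DKO library lay below every WT library for 9 of them and above for 2 (9.38% and 9.34% of all tested genes). Egr1, an immediate early transcription factor, was the single gene of 26 in its list that passed, at -1.49 ± 0.33 on the log2 scale (limma adjusted p = 0.0209), a call lost without WT replicate 1, WT replicate 2, DKO replicate 1 or DKO replicate 2. Of 18 Wnt and beta-catenin targets, the receptor Fzd7 fell by 0.73 on the log2 scale, and of 31 stroma, bone and vessel genes the bone matrix gene Ibsp fell by 1.64. Of 22 NF-kappaB and inflammatory genes, the interleukin-1 receptor antagonist Il1rn and the chemokine Ccl3 rose by 0.79 and 1.18, and in the Bcl2 family of 15, Bcl2a1a and Pmaip1 rose. Xbp1 was the single gene of 28 in the stress and unfolded protein response list that passed. The calls of Fzd7, Ibsp, Il1rn, Ccl3, Bcl2a1a and Xbp1 held in at most 2 of the 7 fits without a library.

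**Figure D5:**
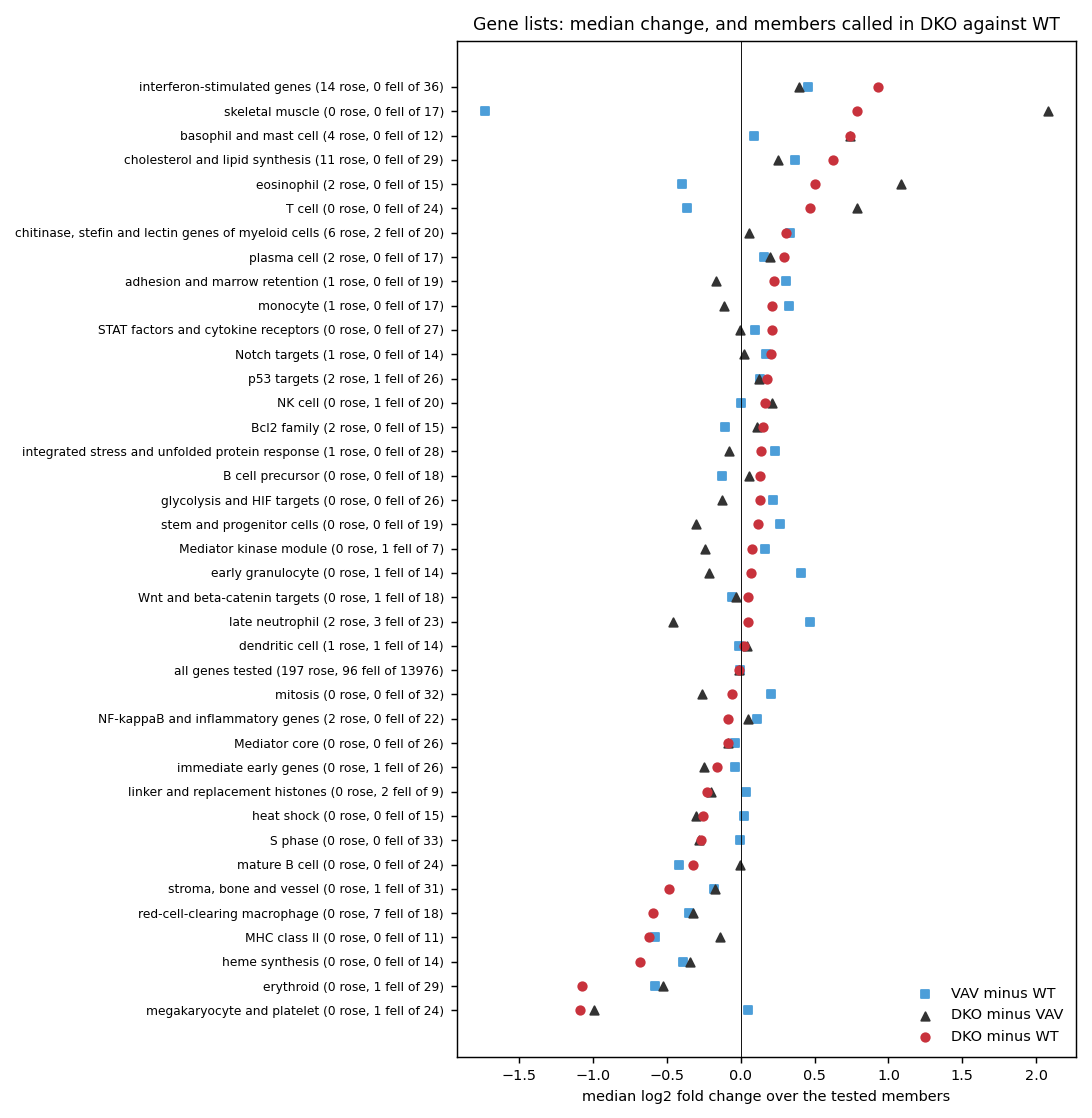
Median log2 fold change over the tested members of each list for DKO over WT (circles), VAV over WT (squares) and DKO over VAV (triangles); labels give how many members rose and fell in DKO over WT. Interferon-stimulated genes have a DKO over WT median of 0.93 and erythroid genes one of -1.07, with all genes tested at -0.01.

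Genes near the altered loci were counted, since alleles carried along with a targeted locus can differ from WT. Within 10 Mb on each side of Cdk19, 4 of 71 other tested genes passed (5.63%: Crybg1, Prdm1, Sesn1 and Marcks). The same window around Cdk8 held 4 of 164 (2.44%: Pilra, Lmtk2, Pilrb1 and Fam20c), and that around Commd10 held 1 of 79 (1.27%), where 2.1% of all tested genes passed. Ankrd22, a macrophage and epithelial ankyrin protein, also passed with Cre alone. It stood at 511, 492 and 467 normalized counts in WT and at 837, 963, 686 and 929.8 in VAV (limma adjusted p = 0.0181), against 1015, 1109.7, 1141 and 1147 in DKO (limma adjusted p = 2.69e-05). DKO exceeded VAV by 0.38 ± 0.12 on the log2 scale, which did not pass (limma adjusted p = 0.133).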

How the data were processed

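Marrow RNA was extracted with Trizol, made into poly(A) libraries with a Kapa kit and read as pairs of 150 bases on a NovaSeq X, per the labels' protocols. The submitters' processing notes name Salmon 1.4.0, DESeq2 (no version) and the mm10 genome, without roles or order. The table the authors deposited holds normalized counts, here treated as a signal: gene counts scaled by 1 factor per library. In each library 100% of values were whole multiples of its smallest step (tolerance 0.001 read), so whole reads were recovered; size factors from DESeq2 1.42.0 on these reads matched the deposited scaling. Genes (34415 of 34432) were matched to GENCODE vM21; 11764 had no reads. A count of 0 allows up to 3 reads (95% limit, counting error only), or 2.49 to 4.50 normalized counts in these 7 libraries. No libraries within a group were duplicates (lowest chi-square per degree of freedom 14.7).

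With limma 3.58.1 (R 4.3.3, trended eBayes), log2 of the normalized count plus 1 was fitted, all 5 groups in 1 fit without covariates, since WT has 3 libraries. P-values were adjusted by Benjamini-Hochberg within each comparison, and a gene passed under 0.05. Values after ± are SD for levels and SE for log2 fold changes. The members and the 41 gene lists were chosen with earlier results of these data known; 1 list and some genes are not reported here. Named genes were up to 15 per direction with the largest change. These passed, averaged 50 or more in WT or DKO and had no overlap between libraries. Among them, genes that also passed in each of the 7 fits without a WT or DKO library came first. The rule also named the 5 smallest p per direction, the kinase module, and up to 4 passing members of each list. Predicted, immunoglobulin segment and sex-linked genes were left out. Vsig4, Irf7, Oasl2, Ifit3, Ifit3b, Oas3, Idi1, Hmgcs1, Fdps, Sqle, Hsd17b7, Stard4, Chil1, Stfa2, Stfa2l1, Axl, Hmox1, Fcna, Spic, Slc40a1, C1qa and the genes near the loci are outside that rule and were chosen after their values were seen. Alternatives were TMM scaling, pseudocounts, filters, array weights, a fit of only the compared groups, edgeR 4.0.16 quasi-likelihood and DESeq2 tests on recovered reads, a replicate block, an erythroid covariate, and leaving out libraries. Tested on simulated data of DKO against WT, the fit called 57% of 100 genes changed by 1 and 85% of 100 changed by 2 on the log2 scale, with 9 false calls among 13776.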

Additional observations from a re-analysis of the deposited data

Results flagged for a closer look

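Among the 76 named genes, 2 had a DKO library far from the other DKO libraries by Dixon's test, which chance alone gives in about 1 of 20 groups. Perp stood at 384.28 normalized counts in DKO replicate 1, against 467.62 to 485.29 in the other DKO libraries. Chit1 stood at 298.96 in DKO replicate 3, against 574.04 to 644.03. Both values lay above every WT library of the same gene, and both genes passed in each fit that left out a library.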

How the results depend on the processing

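TMM scaling, pseudocounts of 0.5 and 5, other filters, edgeR and the replicate block left the number of genes called in DKO against WT within 1.5 times of 293. Counts moved with DESeq2 (636: 398 higher, 238 lower), array weights (982: 589 and 393), only the 2 compared groups (649: 347 and 302) and on leaving out both muscle-rich libraries, DKO replicate 4 and CDK19KO replicate 4 (187, of which 121 higher); the cause was not tested. Leaving out 1 library gave 123 to 231 genes (83 to 159 higher, 40 to 75 lower). VAV against WT gave 331, 640, 3, 49 and 7 with DESeq2, array weights, only the 2 groups, the erythroid covariate and without the muscle-rich libraries, and 3 to 416 without 1 library (416 without VAV replicate 3). DKO against VAV gave 516 with DESeq2, 99 with only the 2 groups, 612 with the covariate, 102 without the muscle-rich libraries and 107 to 226 without 1 library. Cdk8 passed with DESeq2 (-0.64, adjusted p = 0.0289), array weights (-0.62, limma adjusted p = 0.0116) and only the 2 groups (-0.64, limma adjusted p = 0.0103), and ran from -0.69 to -0.61 without 1 library; Cdk19 ran from -1.45 to -1.40. Signs turned for Med12l with the covariate (0.28) and for Med12 without DKO replicate 4 (-0.03; range without 1 library -0.03 to 0.13) or the muscle-rich libraries (-0.03), neither of which passed anywhere. Of 70 called named genes, 60 kept the call with the replicate block and 60 with the covariate, 56 without the muscle-rich libraries, and 47, 49 and 53 without WT replicate 1, 2 or 3. Replicate numbers did not pair the samples: deviations of same-numbered WT and DKO libraries correlated at 0.06, 0.01 and 0.08, not every library correlated best with its own number, and the block gave 223 genes. Genes near the minimum of 10 counts rest on few reads, and a difference there may not be detectable at this depth.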

Other observations

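Values of some other genes, chosen after they were seen, are given as descriptions and support no list. Vsig4, a complement receptor of resident macrophages, stood at 46.4, 42.5 and 32.0 normalized counts in WT and at 2.49, 1.73, 2.11 and 0 in DKO (log2 fold change -4.13 ± 0.53, SE; limma adjusted p = 0.000198), with 17.0 ± 9.19 in VAV (SD, n = 4). DKO libraries lay at or under the level of 3 reads, and none overlapped WT. Apoe, a lipid carrier made by macrophages, fell by 0.96 on the log2 scale, a call lost without WT replicate 1. The endothelin receptor Ednra rose 3.24-fold, from 122, 157 and 134 in WT to 421, 592, 368 and 430.2 in DKO, and the semaphorin receptor Nrp2 2.77-fold (limma adjusted p = 0.000117 and 0.000979). Calcrl and Acvrl1, receptors for adrenomedullin and for bone morphogenetic proteins, rose 1.91-fold and 2.54-fold, and VAV stood near DKO for both, at 2073 ± 220.3 and 781 ± 218 (SD, n = 4 each). The stroma, bone and vessel list had the opposite direction, at a median of -0.48 with 0 that rose, and the vessel marker Pecam1 did not pass, at 0.10 ± 0.20 on the log2 scale (SE).

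A few further genes, also picked after their values were seen and tested as no list, fell. Fkbp5, a chaperone of steroid receptors, stood at 4060.5, 3734 and 3281 in WT and at 1124, 1686, 1649.6 and 1972 in DKO (log2 fold change -1.22 ± 0.24, SE; limma adjusted p = 0.00887, lost without WT replicate 1). Il1r2, the decoy receptor for interleukin 1, was 2.44-fold lower, and the metallothioneins Mt1 and Mt2 fell by 1.03 and 2.38 (log2). VAV lay between the groups for Fkbp5 at 2298 ± 571 and near DKO for Il1r2 at 1106 ± 194 (SD, n = 4 each). Mt2 lost its call without WT replicate 1, and that of Mt1 held in 1 of the 7 fits without a library.

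Sva was read at 0 in all WT and CDK19KO libraries and at 37.4 ± 4.16 normalized counts in DKO (SD, n = 4). VAV held 24.8 ± 3.32 of it, and CDK8KO 30.4 ± 7.24. A count of 0 in WT allows up to 2.58 to 3.99 normalized counts in these libraries. Farp1, which lies near Dock9 on chromosome 14, was the single other gene of 25 within 10 Mb of it that passed, at 254 ± 28.2 in DKO against 105 ± 23.4 in WT (limma adjusted p = 0.00225). That is 4% of the 25, where 2.1% of all tested genes passed. Dock9, on which the window was centred, was itself named for its rise in these libraries.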
